A study of Homo sapiens with 2 samples.

Results

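GYS2, LDHB, KCNJ8, ABCC9 and CMAS are 5 neighbouring genes on the short arm of chromosome 12. They lie on both sides of a point past which 4C signal from a distant site became sparse. Farther on, single probes with many reads were seen again in the library of replicate 2. The 5 genes were chosen by gene name, from the 18644 distinct names of the deposited table, because the signal had been seen to drop between KCNJ8 and ABCC9. Their names stand on 9 of the 61607 windows of 50 kb, called probes, that tile the genome (hg18). Both the place of the edge and the choice of these genes came from the signal itself, in both libraries, so levels before and after the edge are given as a description and were not tested.

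The libraries come from U2OS, a human osteosarcoma cell line, here carrying the transgenes DRGFP, TRE-I-SceI and Tet-On (Clontech). DRGFP is an integrated reporter in which a break made by the enzyme I-SceI can be repaired into a working GFP gene, and the study asked which DNA lies near it. There is 1 group with 2 independent experiments, no control group and no treatment recorded, and whether the cells are 1 clone was not stated in the sources used here. By the value of a single read, replicate 1 held 944456 reads and replicate 2 held 454091, and reads reached 8.06% and 8.63% of all probes. The strongest signal lay on chromosome 12, centred at 13.75 Mb, and this centre serves below as the vantage region; it is not a sequenced insertion site. The libraries hold DNA contacts and no RNA, so markers of the cell line could not be checked, and nothing here is a level of expression.

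In 4C, chromatin is fixed, cut with a restriction enzyme and ligated, so that pieces of DNA that lay close together in the nucleus become joined. PCR from a chosen fragment then recovers its partners, and along the same chromosome contacts usually become rarer with distance. KCNJ8 and ABCC9 encode the partners of one ion channel. KCNJ8 encodes Kir6.1, the pore subunit of an ATP-sensitive potassium (KATP) channel of vascular smooth muscle, and ABCC9 encodes the sulfonylurea receptor SUR2, an ABC protein that lets nucleotides and drugs control the pore. The flanking genes act in metabolism. GYS2 encodes the glycogen synthase of liver, LDHB the heart-type subunit of lactate dehydrogenase, and CMAS the enzyme that activates sialic acid for transfer to glycans.

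Along the chromosome, away from the vantage region, GYS2 (probe 21600001 to 21650000), LDHB (21650001 to 21750000) and KCNJ8 (21800001 to 21850000) came before the edge, and all 4 of their probes had reads in both libraries. ABCC9 (21850001 to 22000000) and CMAS (22050001 to 22150000) came after it, and all 5 of their probes were at 0 reads in both. Reads reached 19.3% of the probes of chromosome 12 in replicate 1 and 20.5% in replicate 2. The edge, at 21.85 Mb, is 8.1 Mb from the centre of strongest signal. All 9 probes overlap the gene they are named for; the table does not say whether exon or intron, and it gives each probe a single name.

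**Figure D1:**
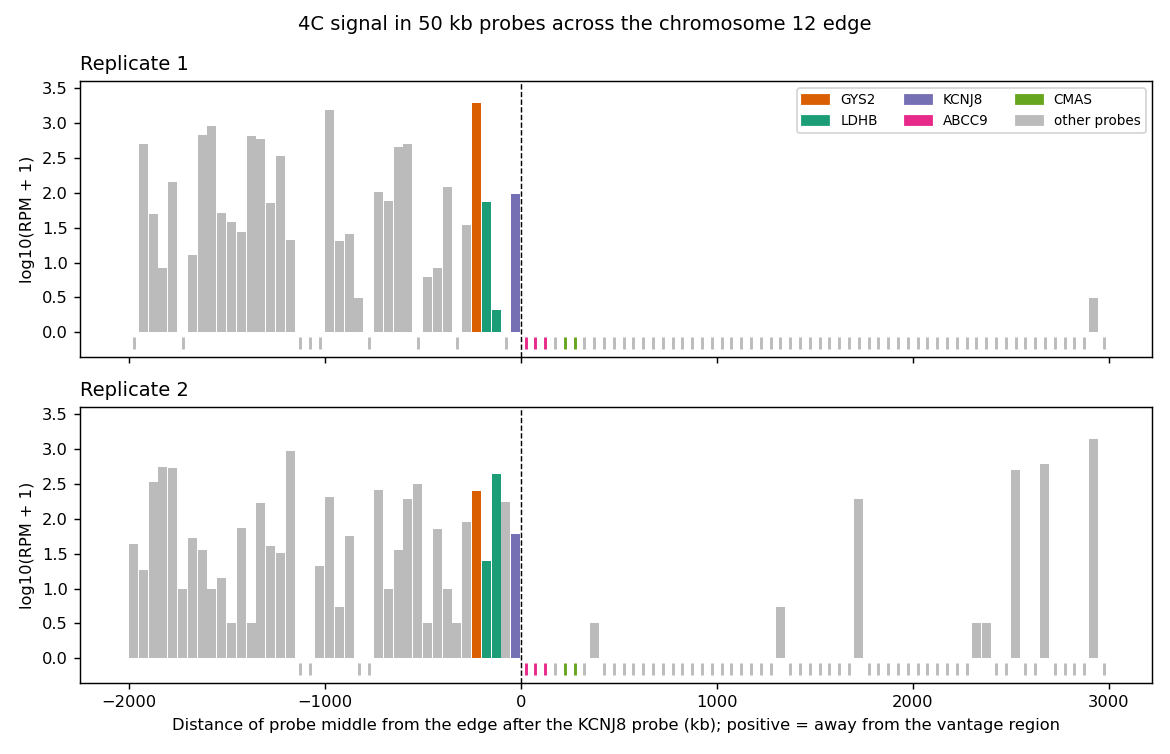
Signal of each 50 kb probe, as log10(RPM + 1), against the distance of its middle from the edge in kb, with replicate 1 above and replicate 2 below. Bars are probes with reads, ticks under the axis are probes at 0, and colours mark the 5 genes: GYS2, LDHB and KCNJ8 have bars in both libraries, and the 3 ABCC9 and 2 CMAS probes have ticks only.

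The KCNJ8 probe, the last before the edge, had 89 reads in replicate 1 and 27 in replicate 2. Per 1000000 reads of its library (RPM) the probe had 94.2 (95% exact Poisson interval 75.7 to 116) and 59.5 (39.2 to 86.5), or 76.8 ± 24.6 (SD, n = 2). Such intervals hold for counting error alone, because one ligation product can yield many PCR copies. Among the 206 probes of chromosome 12 that lie 5120 to 10240 kb from the centre on either side, the KCNJ8 probe ranked 43 from the top in replicate 1 and 60 in replicate 2. It was therefore a probe of middling strength among those with reads, of which there were 116 and 130. Of the genes with reads, KCNJ8 was also the one on which the libraries lay closest together. As the edge was placed from both libraries, this is a description only.

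The next probe, the first of ABCC9, had no read in either library, and neither had the other two of that gene. A floor of 3 reads was set for a count of 0, which is 3.18 RPM in replicate 1 and 6.61 RPM in replicate 2. The exact Poisson interval of a count of 0, of the kind given for KCNJ8, reaches further, to 3.91 and 8.12 RPM. Both limits cover counting error alone. The reads counted on the KCNJ8 probe were 29.7 times the floor of 3 reads in replicate 1 and 9.0 times in replicate 2. These ratios make no allowance for the counting error of the KCNJ8 reads. These are the values just inside and just outside the edge that defined the group, and they show no more than its position. The 50 kb probes set the resolution: KCNJ8 and ABCC9 are adjacent protein-coding genes in the RefSeq order, and a part of ABCC9 that falls in the KCNJ8 probe would be counted under KCNJ8.

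The sequences before the start sites of KCNJ8 and ABCC9 are shown because these genes are neighbours on opposite sides of the edge. Both genes lie on the minus strand, and the windows mark gene starts, not the edge itself. The sequence of LDHB is shown because it holds a site of an enzyme used in the assay. They are the 250 bases before each gene's start from RefSeq (GRCh38.p14, not the build of the probes), 5′ to 3′ on the minus strand: LDHB at chr12:21657843-21658092, KCNJ8 at chr12:21774707-21774956 and ABCC9 at chr12:21941427-21941676. Capitals mark the site of Csp6I, GTAC.
LDHB: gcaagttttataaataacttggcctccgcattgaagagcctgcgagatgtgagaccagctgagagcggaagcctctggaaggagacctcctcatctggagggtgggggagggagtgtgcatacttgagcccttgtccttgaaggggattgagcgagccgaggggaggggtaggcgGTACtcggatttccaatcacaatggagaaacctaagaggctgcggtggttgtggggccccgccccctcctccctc
KCNJ8: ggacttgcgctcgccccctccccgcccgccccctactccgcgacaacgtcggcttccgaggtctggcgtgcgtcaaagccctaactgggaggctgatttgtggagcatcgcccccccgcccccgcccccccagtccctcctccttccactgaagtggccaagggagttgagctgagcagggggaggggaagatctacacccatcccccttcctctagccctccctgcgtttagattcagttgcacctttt
ABCC9: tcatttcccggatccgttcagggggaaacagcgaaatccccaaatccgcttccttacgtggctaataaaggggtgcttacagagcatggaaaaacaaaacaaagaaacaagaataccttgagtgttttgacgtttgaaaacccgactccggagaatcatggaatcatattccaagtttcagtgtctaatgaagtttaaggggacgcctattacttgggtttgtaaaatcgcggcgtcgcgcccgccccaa
Of the 5 genes, 4 matched an entry. The site of HindIII, AAGCTT, which makes the ends that 4C joins, was in none of these 4 windows, and the site of Csp6I, the second cutter, was only in that of LDHB, beginning 75 bases before the start. Both motifs read the same on either strand and do not overlap each other. Over 35116 windows of the same kind, 5.02% held AAGCTT and 25.5% held GTAC. The dinucleotide CG occurred 9 times before LDHB, 15 times before KCNJ8, 15 times before ABCC9 and 16 times before CMAS, beside a median of 11 over all windows. These windows are far shorter than a probe. The number of HindIII sites in each probe, which limits what can be detected there, was not counted, since no hg18 sequence was used, and its part in the result was not tested.

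GYS2 had the highest mean signal per probe of the genes before the edge, although in replicate 2 LDHB had more reads in all (211 against 112). The GYS2 probe had 1805 reads in replicate 1 and 112 in replicate 2, which is 1911 RPM (1824 to 2001) and 247 RPM (203 to 297), with a mean of 1079 ± 1177 RPM (SD, n = 2). In replicate 1 it was the strongest of the 206 probes at like distance, and in replicate 2 it ranked 27. The SD is larger than the mean, so the libraries agree that GYS2 had many reads and not on how many.

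LDHB spans 2 probes, and the libraries placed its reads on different ones. The first probe had 68 reads in replicate 1 and 11 in replicate 2, or 72.0 and 24.2 RPM. The second had 1 read in replicate 1 and 200 in replicate 2, or 1.06 and 440 RPM. Thus 1.45% of the reads of LDHB lay on its second probe in replicate 1, against 94.8% in replicate 2. Over the gene, the mean signal was 36.5 RPM per probe in replicate 1 and 232 in replicate 2 (134 ± 138, SD, n = 2). The probe without a gene name between LDHB and KCNJ8 had 0 reads in replicate 1 and 79 (174 RPM) in replicate 2. In this it was like the second LDHB probe before it, and unlike the KCNJ8 probe after it (94.2 and 59.5 RPM).

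**Figure D2:**
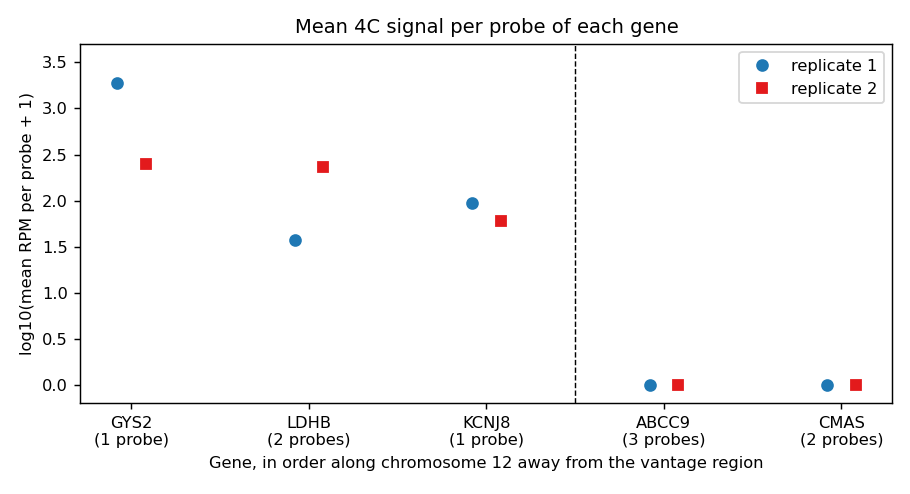
Mean signal per probe of each gene, as log10(RPM + 1), in replicate 1 (circles) and replicate 2 (squares), in order along the chromosome with the edge as a dashed line. GYS2 is highest in both libraries, but in replicate 2 only by 247 against 232 RPM per probe for LDHB. There the second LDHB probe alone, at 440 RPM, is above the GYS2 probe. LDHB and KCNJ8 change places between the libraries, and ABCC9 and CMAS are at 0 in both.

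By mean signal per probe, the order was GYS2, KCNJ8, LDHB in replicate 1 and GYS2, LDHB, KCNJ8 in replicate 2. The means of LDHB and KCNJ8 differ by less than the SD of LDHB, and GYS2 stands above LDHB by less than its own SD. Compared within a library, GYS2 was above LDHB in each. The values were 1911 against 36.5 RPM per probe in replicate 1, but only 247 against 232 in replicate 2. With 2 experiments these neighbours in the order cannot be separated. ABCC9 and CMAS, at 0, have no order. Over the 5 probes from GYS2 to KCNJ8, the unnamed one included, there were 1963 reads in replicate 1 and 429 in replicate 2, or 416 and 189 RPM per probe. GYS2 alone gave 92.0% of these reads in replicate 1 (95% Clopper-Pearson interval 90.7% to 93.1%) and 26.1% in replicate 2 (22.0% to 30.5%). These intervals cover counting error alone and not the difference between the experiments. Without GYS2 the other 4 probes had 41.8 RPM per probe in replicate 1 and 175 in replicate 2, which turns round the order of the libraries. Across the 6 probes from ABCC9 to CMAS both libraries held 0 reads.

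The size of the difference between the libraries was not a criterion in choosing the genes. The edge was, however, placed from the signal in both libraries, so the member probes are not independent of that choice. The difference was tested over all 8750 probes with reads in either library by a two-sided exact binomial test against the library totals. Benjamini-Hochberg adjustment was over all of these probes. Of the 4 member probes with reads, 3 differed, 2 being higher in replicate 1 and 1 in replicate 2. GYS2 was 7.75-fold higher in replicate 1 (adjusted p = 5.58e-177, exact binomial). The first LDHB probe was 2.97-fold higher in replicate 1 (adjusted p = 6.79e-04, exact binomial), while the second rested on a single read in replicate 1 and was 416-fold higher in replicate 2 (adjusted p = 7.33e-95, exact binomial). KCNJ8, 1.58-fold higher in replicate 1, did not pass (adjusted p = 0.0701, exact binomial), but it passed when only probes with at least 10 reads were tested (adjusted p = 0.0387, exact binomial).

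This test compares 2 libraries and covers counting error alone. Of all probes with reads 49.2% differed in the same way (19.5% higher in replicate 1 and 29.7% in replicate 2), of those of chromosome 12 63.4%, and of the 97 with reads in the 5 Mb before the edge 87.6%. The 3 of 4 among the members are thus no more than their surroundings show. Of the 206 probes at like distance, 100 had reads in both libraries, 46 in 1 of them and 60 in neither. The class runs past the edge on the end side, so the empty probes there, those of ABCC9 and CMAS included, are among the 60. Of the 100, 35 were over 10-fold apart between the libraries.

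**Figure D3:**
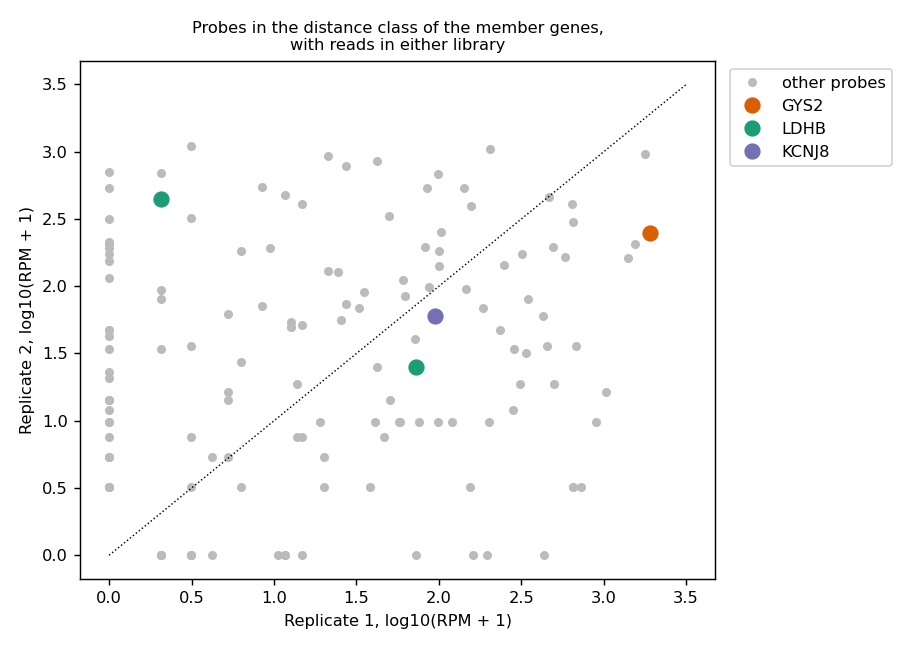
Replicate 2 against replicate 1, as log10(RPM + 1), for probes of chromosome 12 that lie 5120 to 10240 kb from the centre and had reads in either library; the dotted line marks equal RPM. KCNJ8 and the first LDHB probe lie near the line, GYS2 lies farthest right, and the second LDHB probe lies at the upper left with 1.06 and 440 RPM.

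The genes next to the group continue the pattern on each side. Before it, towards the vantage region, GOLT1B, a gene of Golgi vesicle transport, had 33.9 and 90.3 RPM in replicates 1 and 2. PYROXD1, an oxidoreductase gene, had 0 reads and 1 read, and SLCO1A2, an organic anion transporter gene, had 4.24 and 130 RPM per probe over 3 probes. A probe with few or no reads was thus present before the edge too. After CMAS, the next 3 named genes were ST8SIA1, the GD3 ganglioside synthase gene, KIAA0528, now C2CD5, and ETNK1, an ethanolamine kinase gene. All 8 probes of these 3 genes were at 0 in both libraries. IAPP, RECQL and SPX lie between SLCO1A2 and GYS2 in the RefSeq order and name no probe, so their contacts would be counted under other names.

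Of the 10 probes in the 500 kb before the edge, 8 had reads in replicate 1 and 10 in replicate 2 (90.0% ± 14.1, SD, n = 2). Of the 10 in the 500 kb after it, 0 and 1 had reads (5.0% ± 7.07), and the 1 probe, between CMAS and ST8SIA1, held a single read. The same distances towards the start of the chromosome gave another picture. The 10 probes that mirror the flank after the edge (5150001 to 5650000) had reads in 8 cases in replicate 1 and 6 in replicate 2, with 222 and 154 RPM per probe. The 10 that mirror the flank before it (5650001 to 6150000) had reads in 4 and 5 cases, with 150 and 157 RPM per probe.

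In the 500 kb that mirror the flank after the edge, therefore, 70.0% ± 14.1 of probes (SD, n = 2) had reads. When at least 10 reads were required, it was 35.0%. In the 300 kb that mirror the stretch from ABCC9 to CMAS alone, it was 75.0% ± 11.8 of 6 probes (SD, n = 2). On the end side, none of the 6 probes from ABCC9 to CMAS had reads. At the distances of GYS2, LDHB and KCNJ8, probes with reads were fewer on the start side than on the end side in both libraries. No test was made of these differences, as the edge had placed one side of them. The centre is known only to a window: at 13.9 Mb (from 200 kb windows) or 13.5 Mb (from 1 Mb windows), the mirrored flanks had reads at 65.0% or 70.0% of probes before the edge and at 50% or 65.0% after it.

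**Figure D4:**
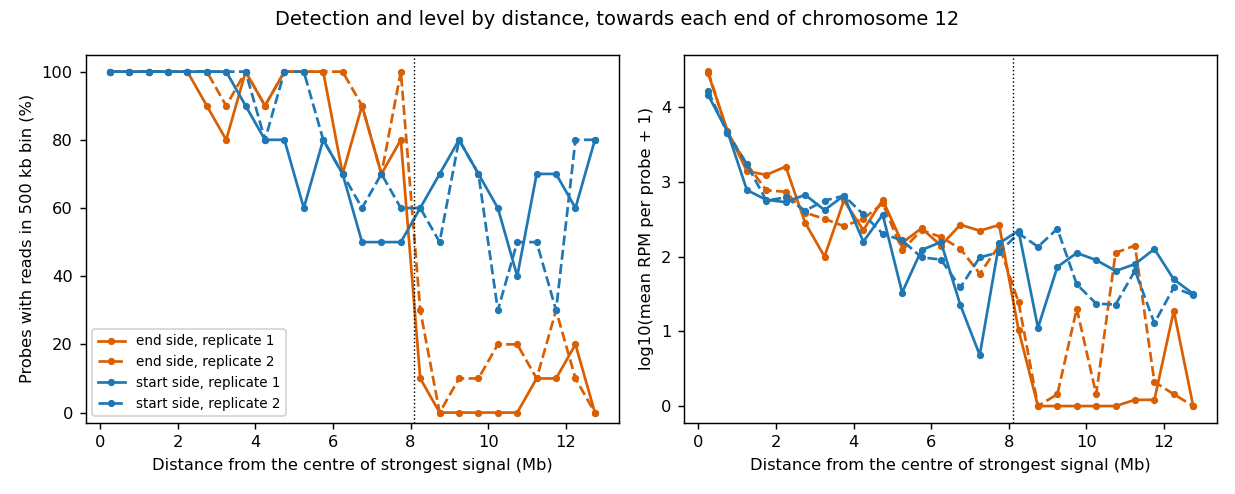
Share of probes with reads (left, in percent) and log10 of the mean RPM per probe plus 1 (right) in 500 kb bins by distance from the centre in Mb, towards the end of chromosome 12 (orange) and its start (blue), with replicate 1 solid and replicate 2 dashed. Both sides begin at 100% of probes. Past the dotted line at 8.1 Mb the end side drops to between 0% and 30% of probes. The start side stays between 30% and 80% there. The first end-side bin past the line, with its middle at 8.25 Mb, also holds probes before the edge, KCNJ8 among them.

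The stretch without reads that opens with ABCC9 differed in length between the libraries. In replicate 1 it ran over 58 probes, 2.9 Mb, up to 24750000, which no other empty run on chromosome 12 exceeded and 1 other, from 89250001, equalled. In replicate 2 it ran over 7 probes, 0.35 Mb, and 90 of the 206 empty runs of the chromosome were longer. Between the centre and the edge, the longest empty run was 3 probes in replicate 1 and 2 in replicate 2. On the start side it was 5 probes in replicate 1 and 7 in replicate 2, the last as long as the run at ABCC9 and CMAS in that library. Counting probes empty in both libraries at once, the run that opens with ABCC9 was 7 probes long, while the longest was 2 between the centre and the edge and 3 on the start side. Over the whole chromosome 94 of 281 such runs were longer than that at ABCC9 and CMAS.

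Among the 684 named genes of chromosome 12, clone-based names left out, 146 had reads in both libraries and 407 in neither, and ABCC9 and CMAS belong to the latter, within which no likeness can be ranked. For the others, likeness was measured as the Euclidean distance in log2(mean RPM per probe + 1) over the 2 libraries. The genes nearest to KCNJ8 were CACNA1C, a calcium channel gene, at a distance of 0.48 with 119 and 46.4 RPM per probe in replicates 1 and 2, then A2ML1 (0.76) and C3AR1 (0.78). Nearest to GYS2 were FAM80B, now RIMKLB (0.76), CLECL1 (0.78) and STRAP (0.99). Nearest to LDHB were the row named GABARAPL3 (0.57), CLEC7A (0.91) and KLRG1 (1.02). STRAP lies between the centre and the edge, and the others lie on the start side of the centre, from 3.48 to 11.4 Mb away. How the 146 genes with reads in both libraries divide between the sides was not counted. These places are therefore not a result about the members. With 2 libraries many genes can come this near.

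The other genes of the pathways had few contacts, as did genes at large. Of 68 genes off chromosome 12 in 6 lists (KATP channel subunits, inward rectifier channels, ABCC transporters, and glycogen, lactate and sialic acid metabolism), 14 had reads in replicate 1 and 15 in replicate 2, or 20.6% and 22.1%. Over the 12252 names off chromosome 12, with clone-based and similar names left out, the shares were 15.9% and 16.3%. The median signal of every list, as of all these names, was 0 in both libraries. The lists had a median of 2 probes per gene against 1 over these names, with means of 2.2 and 2.26. A longer gene has more chances of a read.

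The partners of the KATP channel family followed no common pattern. ABCC8, the receptor subunit of the channel of pancreatic beta cells, had no read in either library on chromosome 11, and KCNJ11, which encodes its pore, names no probe. Of 11 other inward rectifier genes 3 had reads in each library, and KCNJ2 and KCNJ16, neighbours on chromosome 17, had them in both. KCNJ2 had 73.1 and 308 RPM and KCNJ16 3.71 and 62.8 RPM per probe. Of 11 other ABCC genes, 2 had reads in each library: ABCC10 on chromosome 6 (5.29 and 15.4 RPM) and ABCC4 on chromosome 13 (0.756 and 1.26 RPM per probe).

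Of 17 other glycogen genes, 4 in replicate 1 and 1 in replicate 2 had reads. GAA, the lysosomal alpha-glucosidase gene on chromosome 17, was the only one of them with reads in both libraries (2.12 and 716 RPM). GYS1, the muscle glycogen synthase gene, names no probe. Of 9 other lactate genes, 1 had reads in replicate 1 and 2 in replicate 2. LDHAL6A, a relative of LDHB on chromosome 11, had 406 and 317 RPM (361 ± 62.5, SD, n = 2), while LDHC, on the probe before it, and LDHA, on the one before that, had none. Of 22 other sialic acid genes, 4 had reads in replicate 1 and 8 in replicate 2. Those with reads in both were NPL (29.6 and 11.01 RPM per probe), ST3GAL6 (29.6 and 18.7), ST3GAL1 (0.794 and 0.551) and ST8SIA2 (0.353 and 181). On chromosome 12 itself, beyond the edge, ST8SIA1 had none, and the lactate transporter gene SLC16A7 had 2 reads, both in replicate 2.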

How the data were processed

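4C-seq signal of 2 libraries was analysed. Per the labels' protocols, fixed chromatin was cut with HindIII and ligated, cut with Csp6I and circularised, and amplified from the transgene by 30 cycles of inverse PCR. The signal values that the authors deposited cover 50 kb probes, and the submitters' processing notes name build hg18. The aligner, filters and counting tool were not given in the sources used here. All values (100% within 0.1 read) were whole multiples of 1.06 in replicate 1 and 2.20 in replicate 2, and the reads were recovered from these steps, so the unit is RPM. Summed over probes, the reads come to 947121 and 454478, slightly above the library totals that the steps give; the totals were used as the scale. A total row, a mean row and 1 mitochondrial probe were left out.

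The members and lists were chosen with earlier results of these data known. No test was made of levels across the edge. Libraries were compared by exact binomial tests (threshold 0.05), which called 4305 of 8750 probes. The tests were also run on data simulated with counting error alone, as the tests assume. That run cannot show how they behave with PCR copies. Named were the members, the 3 nearest gene symbols on each side, the 3 most alike per member, and list genes with reads in both libraries or paralogous to a member. Of the 6 lists, genes that name no probe were left out. Alternatives covered scale, read minimum, flank, centre and each replicate. Python 3.11.15, scipy 1.17.1 and pandas 2.3.3 were used. Replicates are independent experiments per the series' design text.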

Additional observations from a re-analysis of the deposited data

How the results depend on the processing

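Leaving out 1 of 2 replicates cannot move a mean by more than their SD, a gene at 0 stays there, and some alternatives changed no probe. Of the 30 other alternative values, 16 moved by no more than the SD between replicates or, for counts, by no more than 1.5 times, and 14 moved further. Scaled to reads outside 1 Mb around the centre, the mean RPM per probe was 2282 for GYS2, 300.3 for LDHB and 166 for KCNJ8. Scaled to reads off chromosome 12, it was 3241, 435 and 237. Dividing by fewer reads raises every value, and ABCC9 and CMAS were at 0 under each alternative. With at least 2 reads required, 75.0% of probes before the edge counted, and with at least 10 reads 60.0%. With at least 10 reads, the mirrored flanks gave 30.0% before the edge and 35.0% after it, and pathway genes with reads in replicate 1 numbered 6 in place of 14. From the centre at 13.9 Mb the mirrored flanks gave 65.0% before and 50% after the edge, and from that at 13.5 Mb 70.0% before. Leaving out a replicate gave 247 to 1911 for GYS2, 36.5 to 232 for LDHB and 59.5 to 94.2 for KCNJ8. The cause of the differences between replicates was not tested. No paired analysis was possible because there is 1 group. By the exact Poisson interval, which covers counting error alone, a probe at 0 may still have up to 3.91 RPM in replicate 1 and 8.12 in replicate 2.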

Other observations

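Beyond the members, the libraries differed in what followed. Over the 58 probes from ABCC9 on that were empty in replicate 1, replicate 2 had 597 reads on 7 probes (12.1%), 3 of them with a single read. Most fell on a few probes far from the edge. SOX5, a transcription factor gene of cartilage formation (23550001 to 23600000), had 87 reads, or 192 RPM. Probes without a gene name at 24350001 and 24500001 had 229 and 276 reads, or 504 and 608 RPM. The probe at 24750001, which ends the empty stretch of replicate 1, had 2 reads in replicate 1 and 635 in replicate 2, or 2.12 and 1398 RPM. That value in replicate 2 is above all 5 probes from GYS2 to KCNJ8 in the same library.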
